A study of Mus musculus with 135 samples.

Results

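The hippocampus was profiled by bulk RNA sequencing in mice that went through repeated social defeat (RSD) while they drank minocycline, and SS mice were compared with AA mice under that same exposure. The libraries were chosen by their labels, which gave hippocampus as the tissue, RSD as the stress exposure and minocycline as the treatment. There were 14 SS and 19 AA libraries with these labels, and 1 AA library was left out because its counts were identical to those of a library labelled as an SS mouse with minocycline and no RSD. That left 14 SS and 18 AA libraries, 1 per mouse, or 32 of the 134 libraries of the series whose group the labels gave. All mice were male Townes mice aged 6 months, a line in which human globin genes replace the mouse ones, so that SS mice carry sickle hemoglobin and AA mice normal human hemoglobin. RSD was given for 2 h a day on 6 days, and minocycline was supplied at 90 mg/kg in the drinking water from 1 day before. Both groups share the defeat and the drug, and the comparison is of genotype on that background. The other groups of the series were without RSD, without minocycline or without both, and the cortex of the same mice was sequenced too.

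Sickle hemoglobin polymerizes when it gives up oxygen, red cells break down early, and the blood then carries many immature red cells that still hold RNA. These cells and free heme reach the brain through vessels whose endothelium carries the transporters and junctions of the blood-brain barrier. Alas2, the erythroid enzyme of the first step of heme synthesis, marks immature red cells, and minocycline is a tetracycline antibiotic known to dampen microglial activation. In bulk tissue, fewer cells of a type and less RNA per cell cannot be told apart.

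Before the comparison, 2 libraries were seen to go against their labels. In read counts per 1000000 reads on genes (CPM), the AA library labelled 5853 held 43.99 of Alas2, while the other 17 AA libraries did not exceed 12.7. The SS library labelled 7078 held 3.42, while the other 13 SS libraries did not fall below 37.6. The cortex gave the same picture, with 51.1 CPM in 5853 beside 2.85 to 20.3 CPM in the other AA mice, and 6.43 CPM in 7078 beside 55.5 to 126 CPM in the other SS mice. Of the 33 genes called higher in SS mice, 5853 was the highest AA library for 21 and 7078 the lowest SS library for 29. Whether these libraries were exchanged or mislabelled was not tested. Results are given with both under their labels, and again without the pair. The pair was singled out by its Alas2 level, so for Alas2, and in part for genes that vary with it across libraries, larger folds, lower p and separate groups without the pair follow from that choice and are given as a description.

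Reads on genes ranged from 19323399 to 58741078 (median 31265001) in AA and from 19898354 to 68731008 (median 41796950) in SS libraries. Of 5 measures of depth and read composition none differed between genotypes past the test (two-sided permutation test with 100000 resamples, lowest p = 0.157, adjusted p = 0.783, for reads on genes). The SS library labelled 9812 had 24.01% of its reads outside genes, beside at most 9.94% in AA libraries. The summed level of 18 hippocampal subfield markers was higher in the hippocampus than in the cortex in 32 of 32 mice. The SS library labelled 9810 had the lowest such sum and the highest sum of cortical markers, at 612 CPM beside 350.2 CPM in the next library. Choroid plexus markers summed to 32.4 to 10449 CPM in AA and to 25.98 to 2251 CPM in SS libraries and exceeded 1000 CPM in 3 AA and 2 SS libraries.

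With all 32 libraries, 36 of 17749 genes tested (0.203%) were called at an adjusted p under 0.05 (edgeR quasi-likelihood test with Benjamini-Hochberg adjustment). Of these, 33 were higher in SS mice (0.186% of the genes tested) and 3 were lower (0.0169%). Without 5853 and 7078, 60 of 17645 genes were called (0.34%). Of these, 53 rose (0.3%), 7 fell (0.0397%), and the 60 held 34 of the 36. The other pair were Bst1, which did not pass the filter on low counts in that fit, and Mrgprf, with an adjusted p of 0.0626. Red cell and globin genes, interferon-stimulated genes, and genes of low oxygen and of vessels, and Apol11b, made up the 21 called genes that belong to any of 41 gene lists, and 15 called genes belong to none. The lists were chosen with earlier results of these data known. A called share of a list above that of all genes, here and below, can follow in part from that choice. Such shares are given as a description. With all libraries 0 genes had every SS library above every AA library. Without the pair this held for 12 of 17749 genes (0.0676%), and for 0 genes in the opposite direction. All 12 were called, and 11 of them were Apol11b, Slc4a1, Hba-x, Trim10, Alas2, Tspo2, Rsad2, Isg20, Adm, Ube2l6 and Acer2. For Alas2 this restates how the pair was chosen.

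**Figure D1:**
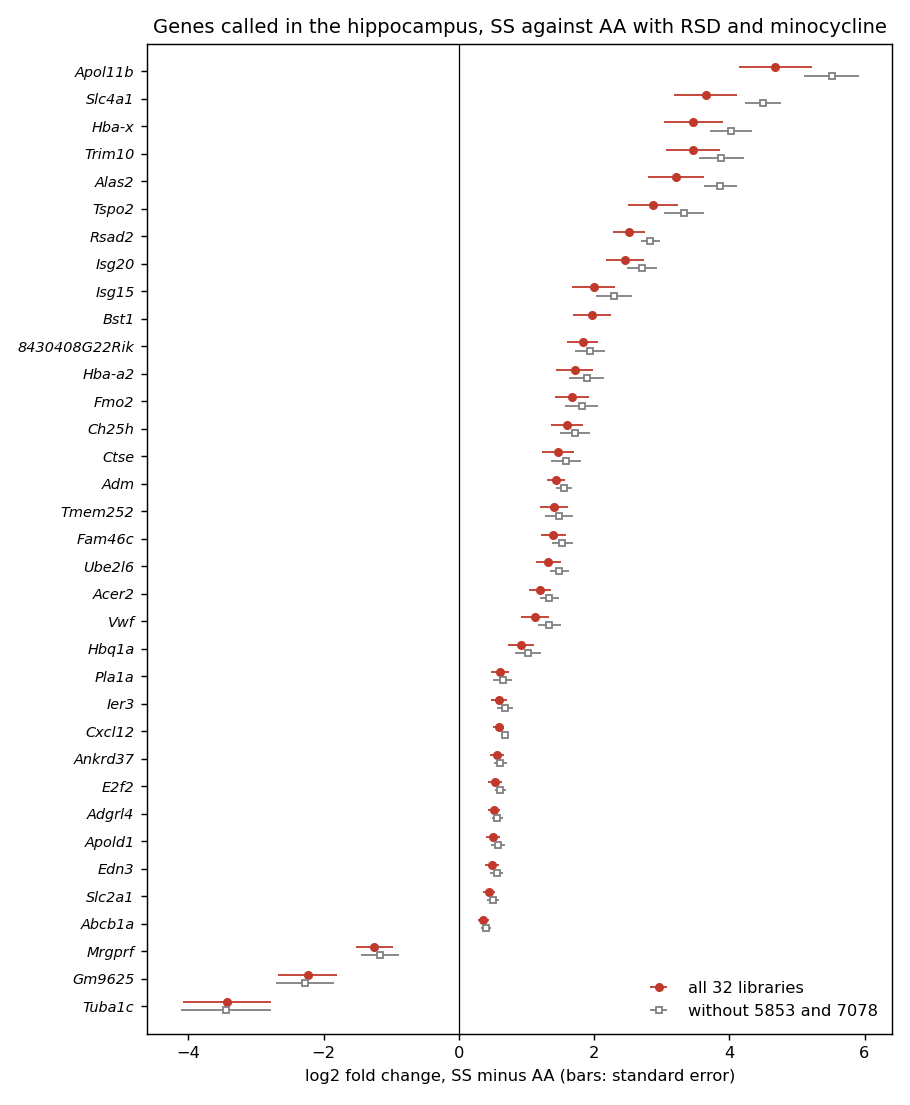
Log2 fold change of SS against AA mice with its standard error for 35 of the 36 genes called, with all 32 libraries and without the libraries labelled 5853 and 7078 (Bst1 has no value there). Apol11b had the highest value, 4.68 ± 0.54 with all libraries and 5.51 ± 0.40 without the pair, and Tuba1c the lowest, -3.43 ± 0.65 and -3.45 ± 0.66.

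Genes of immature red cells showed some of the largest differences. The 250 bases before the start of the canonical transcript of Alas2 (chrX:149330121-149330370 of GRCm39, plus strand) and of Slc4a1 (chr11:102256107-102256356, minus strand) are shown because both hold AGATAA, a sequence that GATA factors bind, on either strand. Each is written 5′ to 3′ in the direction of its gene with the match in capitals. The canonical transcript of Slc4a1 starts inside the annotated gene, which reaches further upstream to 102257029. The motif was found in 7.99% of such stretches of 17659 genes tested, and in 3 of the 36 called genes (Slc4a1, Trim10 and Alas2).
Alas2: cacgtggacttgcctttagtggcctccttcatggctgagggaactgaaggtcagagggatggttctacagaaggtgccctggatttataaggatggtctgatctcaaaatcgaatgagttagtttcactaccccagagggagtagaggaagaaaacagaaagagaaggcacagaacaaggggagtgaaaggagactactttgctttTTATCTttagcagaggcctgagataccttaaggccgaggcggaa
Slc4a1: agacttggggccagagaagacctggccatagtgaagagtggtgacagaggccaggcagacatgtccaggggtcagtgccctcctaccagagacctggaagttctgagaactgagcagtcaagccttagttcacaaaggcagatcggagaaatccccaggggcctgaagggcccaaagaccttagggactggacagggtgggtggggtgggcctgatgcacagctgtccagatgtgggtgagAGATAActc

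Alas2 (chrX:149330371-149353634, plus strand) ran from 2.07 to 43.99 CPM (median 3.65) in AA and from 3.42 to 118 CPM (median 57.1) in SS libraries. The groups overlapped through 5853 and 7078 alone. The log2 fold change, the log2 of the ratio of SS to AA, was 3.21 ± 0.41 (SE, n = 14 SS and 18 AA mice, 9.27-fold, adjusted p = 8.45e-06), and 3.87 ± 0.25 (14.6-fold, adjusted p = 1.40e-12) without the pair, which was chosen by this gene. Of its exonic bases 13.8% are also covered by genes on the other strand.

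Slc4a1, the band 3 anion exchanger of the red cell membrane, ran from 0.106 to 4.44 CPM (median 0.275) in AA and from 0.275 to 10.9 CPM (median 6.03) in SS libraries. Its highest AA library was 5853 and its lowest SS library 7078, and without them the AA libraries ended at 1.27 CPM and the SS libraries began at 2.85 CPM. The log2 fold change was 3.65 ± 0.46 (adjusted p = 8.45e-06), and 4.50 ± 0.27 without the pair. Trim10, a gene of red cell maturation, differed by 3.46 ± 0.40 on the log2 scale (adjusted p = 1.89e-06), at no more than 2.82 CPM. Tspo2, an erythroid relative of the translocator protein, differed by 2.87 ± 0.37 (adjusted p = 1.31e-05), at no more than 1.91 CPM, with 11% of its exonic bases covered on the other strand. Without the pair Trim10 and Tspo2 differed by 3.88 ± 0.33 and 3.33 ± 0.29.

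Of 11 mouse globin genes, 3 passed the filter on low counts and all 3 were called higher. The filter keeps a gene that is high in 1 group, so this count does not speak for the list. Hba-x, the embryonic alpha-like globin, ran from 0.0577 to 2.91 CPM (median 0.317) in AA and from 0.169 to 11.8 CPM (median 4.64) in SS libraries. Its groups were separate without the pair, and the log2 fold change was 3.47 ± 0.43 (adjusted p = 7.15e-06) with it and 4.02 ± 0.31 without it. Hba-a2, a mouse adult alpha globin with a near-identical copy between which reads may be shared, ran from 0.0324 to 0.542 CPM (median 0.2195) in AA and from 0.264 to 1.52 CPM (median 0.722) in SS libraries and differed by 1.71 ± 0.27 (adjusted p = 0.000292). Human globin genes replace the mouse ones in this line, and Hba-a2 had only 1 to 12 reads in AA and 13 to 58 in SS libraries. The origin of these reads was not tested. Hbq1a, a theta-like globin, differed by 0.92 ± 0.19 (adjusted p = 0.0197). That call was lost without the SS library labelled 9895 (adjusted p = 0.0559) or 5801 (adjusted p = 0.050007). Hbb-bs, a mouse beta globin that the human genes replace, did not exceed 0.224 CPM in AA and 0.209 CPM in SS libraries and was not tested. Within 5 Mb of Hba-x, 3 of 53 genes tested were called, which were the globins themselves, and within 5 Mb of Hbb-bs 0 of 99. Over all genes tested the share was 0.203%.

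Of 22 tested erythroid regulators and reticulocyte genes, Trim10, Isg20, Fam46c and Ube2l6 rose, beside 0.186% of all genes, and the list's median log2 fold change was 0.016 beside -0.0046 over all genes tested. Fam46c, now named Tent5c, a poly(A) polymerase, ran from 2.09 to 6.73 CPM (median 2.62) in AA and from 2.28 to 14.9 CPM (median 8.38) in SS libraries and rose by 1.40 ± 0.18 (adjusted p = 1.32e-05). Ube2l6, which conjugates ISG15, ran from 3.46 to 9.76 CPM (median 4.32) in AA and from 3.63 to 24.9 CPM (median 10.4) in SS libraries and rose by 1.32 ± 0.18 (adjusted p = 2.84e-05). Of its exonic bases 23.7% are covered on the other strand. Ctse, an aspartic protease that red cells also contain, ran from 0.144 to 0.559 CPM (median 0.282) in AA and from 0.1902 to 1.84 CPM (median 0.705) in SS libraries and rose by 1.47 ± 0.24 (adjusted p = 0.000358). The other pair of red cell lists had medians near that of all genes. The median was -0.013 for the heme synthesis list, where 2 of 12 were called, the enzyme Alas2 and Tspo2, which is not an enzyme of that path. It was 0.023 for the red cell membrane and skeleton (2 of 14 called). Fech, the last heme enzyme, which all cells use and which is named after its values were seen, was at 68.7 ± 5.83 CPM in AA and 74.9 ± 6.97 CPM in SS mice (SD, log2 fold change 0.12 ± 0.04, adjusted p = 0.596).

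**Figure D2:**
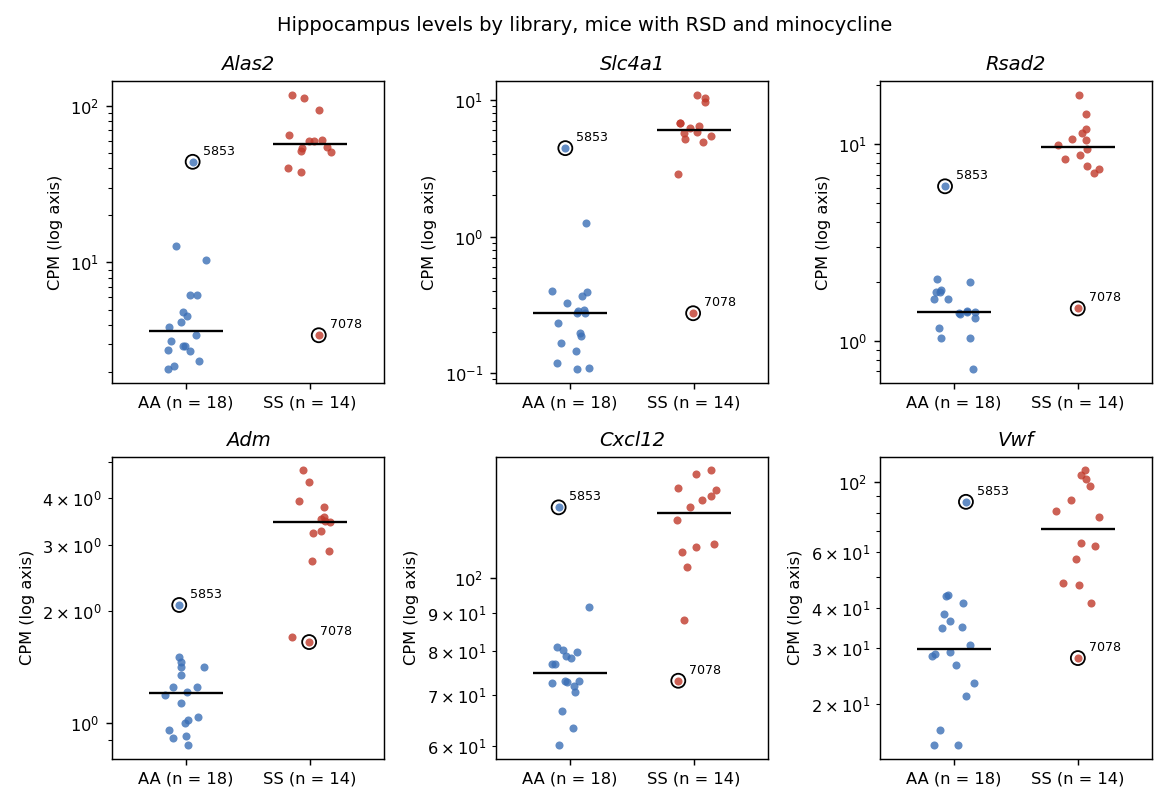
Level in CPM (log axis) of 6 genes in each hippocampus library by genotype, with the group median as a line and the libraries labelled 5853 and 7078 circled. The circled AA library lies among or near the SS libraries and the circled SS library among the AA libraries for Alas2, Slc4a1, Rsad2, Cxcl12 and Vwf.

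With all libraries, listed markers of the other cells that blood carries were not called: 0 of 6 tested lymphocyte genes, 0 of 3 neutrophil granule genes, 0 of 7 monocyte and border macrophage genes and 0 of 4 platelet genes. Since 0.203% of all genes were called, a count of 0 among so few genes says little. Lymphocyte genes summed to 14.8 to 36.3 CPM in AA and 17.2 to 48.1 CPM in SS libraries, and neutrophil genes to 6.13 to 12.1 CPM and 7.61 to 15.4 CPM. Ptprc, the CD45 gene of white cells and microglia, was at 3.405 ± 0.527 CPM in AA and 4.23 ± 0.744 CPM in SS mice (log2 fold change 0.31 ± 0.09, adjusted p = 0.274). Lcn2, a neutrophil granule and acute phase protein, was at 0.265 ± 0.512 CPM in AA and 1.04 ± 1.201 CPM in SS mice (2.06 ± 0.57, adjusted p = 0.222). Igkc, the kappa light chain of B cells, was at 0.633 ± 1.31 CPM in AA and 1.43 ± 2.23 CPM in SS mice (1.20 ± 0.62, adjusted p = 1.000). Trbc2, a T cell receptor chain named after its values were seen, was at 0.399 ± 0.363 CPM in AA and 0.958 ± 1.496 CPM in SS mice (1.23 ± 0.49, adjusted p = 0.736). Without the pair these lists again held no called gene. Outside them Ighd, an immunoglobulin heavy chain gene, then rose by 0.997 ± 0.22 (adjusted p = 0.0284). Myo1g, a myosin of blood cells, rose by 0.74 ± 0.17 (adjusted p = 0.0413). Both were named after their values were seen, and their group means were under 1 CPM. The part of blood left in the vessels in the red cell difference was not tested.

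Among interferon-stimulated genes, Rsad2 and Isg15 rose. The 250 bases before the canonical start of Rsad2 (chr12:26506452-26506701 of GRCm39, minus strand) and of Isg15 (chr4:156285304-156285553, minus strand) are shown because both hold the core of the interferon response element, a TTTC and a further TTTC with any 2 bases between them, on either strand. The match is in capitals, and in Isg15 the capitals cover 3 overlapping matches. The motif was found in 3.03% of the stretches of genes tested, and in 3 of the 36 called genes (Apol11b, Rsad2 and Isg15).
Rsad2: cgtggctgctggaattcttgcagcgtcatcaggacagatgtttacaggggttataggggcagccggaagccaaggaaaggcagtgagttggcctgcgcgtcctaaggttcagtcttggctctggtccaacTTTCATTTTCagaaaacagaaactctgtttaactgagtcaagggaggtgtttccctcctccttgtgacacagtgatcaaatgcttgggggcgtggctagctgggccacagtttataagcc
Isg15: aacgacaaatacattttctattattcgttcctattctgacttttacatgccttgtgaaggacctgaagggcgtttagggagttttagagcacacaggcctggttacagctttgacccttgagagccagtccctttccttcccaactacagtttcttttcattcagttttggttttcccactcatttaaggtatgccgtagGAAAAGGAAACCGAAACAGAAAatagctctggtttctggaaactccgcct

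Rsad2 (viperin, chr12:26492745-26506451, minus strand), an antiviral enzyme, ran from 0.713 to 6.11 CPM (median 1.41) in AA and from 1.46 to 17.9 CPM (median 9.69) in SS libraries. Every SS library but 7078 lay above every AA library. The log2 fold change was 2.52 ± 0.24 (5.73-fold, adjusted p = 4.05e-08), and 2.83 ± 0.14 (7.13-fold, adjusted p = 1.47e-15) without the pair. AA libraries then ended at 2.06 CPM and SS libraries began at 7.18 CPM. Isg15, a ubiquitin-like protein, ran from 0.438 to 3.403 CPM (median 0.822) in AA and from 0.7396 to 13.2 CPM (median 2.76) in SS libraries. It rose by 1.99 ± 0.32 (adjusted p = 0.000311), and the 2 SS libraries labelled 9895 and 9890 stood above the others at 8.48 and 13.2 CPM. Of its exonic bases 31.1% are covered by a gene on the other strand. Isg20, an RNA exonuclease that interferon induces, ran from 0.515 to 2.56 CPM (median 0.745) in AA and from 0.655 to 11.5 CPM (median 3.71) in SS libraries and rose by 2.45 ± 0.28 (adjusted p = 1.89e-06).

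Of the interferon-stimulated list 2 of 19 tested members were called, beside 0.203% of all genes, and the median was 0.13. Its abundant members, named after their values were seen, did not pass the test. Ifi27 was at 39.7 ± 10.3 CPM in AA and 33.5 ± 8.98 CPM in SS mice, and Xaf1 at 20.1 ± 9.49 and 18.5 ± 7.03 CPM. The summed level of the list was 89.7 to 163 CPM in AA and 94.6 to 174 CPM in SS libraries. Of the MHC genes 0 of 14 were called, with a median of 0.25, and H2-D1, a class I heavy chain, was at 32.8 ± 5.02 CPM in AA and 42.4 ± 16.7 CPM in SS mice (0.37 ± 0.13, adjusted p = 0.621).

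Of 22 tested genes of the hypoxia response, Adm, Ankrd37 and Slc2a1 rose, where 0.186% of all genes tested did. Adm (adrenomedullin, chr7:110226858-110229027, plus strand), a vasodilator peptide that low oxygen induces, ran from 0.873 to 2.07 CPM (median 1.201) in AA and from 1.65 to 4.74 CPM (median 3.46) in SS libraries. The groups overlapped through 5853 alone, which at 2.07 CPM lay above the SS libraries labelled 7078 (1.65 CPM) and 7076 (1.71 CPM). The other AA libraries ended at 1.504 CPM, below every SS library. Adm rose by 1.44 ± 0.13 (2.71-fold, adjusted p = 3.45e-08, the lowest of all genes tested), and by 1.56 ± 0.12 (adjusted p = 4.64e-11) without the pair. Of its exonic bases 31.9% are covered by a gene on the other strand. Ankrd37, an ankyrin repeat protein that low oxygen induces, ran from 3.47 to 6.71 CPM (median 4.24) in AA and from 4.92 to 9.200 CPM (median 6.34) in SS libraries and rose by 0.56 ± 0.10 (adjusted p = 0.00203), with 81.4% of its exonic bases covered on the other strand. Slc2a1, the glucose transporter of the barrier endothelium, ran from 87.2 to 134 CPM (median 108) in AA and from 99.5 to 213 CPM (median 132) in SS libraries and rose by 0.45 ± 0.09 (adjusted p = 0.0128). The hypoxia list had 18 positive members and a median of 0.083, and Ldha, the lactate dehydrogenase of glycolysis, named after its values were seen, was at 297 ± 81.01 CPM in AA and 284 ± 71.1 CPM in SS mice. The core of the hypoxia response element, ACGTG on either strand, was found before 11 of the 36 called genes and in 19.4% of the stretches of genes tested, and not in that of Adm.

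Among genes of brain endothelial identity 2 of 22 were called beside 0.203% of all genes, 19 were positive, and the median was 0.14 (0.17 without the pair). Abcb1a, the P-glycoprotein efflux pump, ran from 25.6 to 48.8 CPM (median 35.4) in AA and from 32.6 to 65.1 CPM (median 42.7) in SS libraries. It rose by 0.36 ± 0.08 (adjusted p = 0.0475), a call that held in 14 of 32 fits that each left out 1 library (highest adjusted p = 0.0899, without 5797).

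Of 17 tested genes of endothelial activation and adhesion, Ch25h, Vwf and Apold1 rose, beside 0.186% of all genes, with a list median of 0.31. This list too was chosen with earlier results known, and an excess was not tested. Vwf, von Willebrand factor, which tethers platelets, ran from 14.8 to 86.5 CPM (median 29.9) in AA and from 27.9 to 109 CPM (median 71.02) in SS libraries. Its highest AA value was that of 5853 and its lowest SS value that of 7078. Vwf rose by 1.13 ± 0.21 (2.18-fold, adjusted p = 0.00344), and by 1.34 ± 0.17 (adjusted p = 8.94e-06) without the pair. Ch25h, cholesterol 25-hydroxylase, ran from 0.0515 to 0.486 CPM (median 0.259) in AA and from 0.254 to 1.29 CPM (median 0.865) in SS libraries and rose by 1.599 ± 0.235 on the log2 scale (adjusted p = 9.06e-05), with 50.3% of its exonic bases covered on the other strand. Apold1, an early response gene of endothelium, rose by 0.50 ± 0.11 (adjusted p = 0.0245), a call lost without 9812 (adjusted p = 0.0524). Vcam1, an adhesion molecule of inflamed endothelium, named after its values were seen, was at 27.6 ± 9.31 CPM in AA and 25.8 ± 5.61 CPM in SS mice and did not pass.

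Cxcl12, a chemokine of stromal and endothelial cells, ran from 60.2 to 124 CPM (median 75.01) in AA and from 73.2 to 139 CPM (median 122) in SS libraries. It rose by 0.59 ± 0.08 (adjusted p = 5.86e-05), and by 0.68 ± 0.06 (adjusted p = 3.21e-09) without the pair. Adgrl4, an adhesion receptor of endothelium, ran from 12.5 to 20.4 CPM (median 15.3) in AA and from 14.7 to 32.4 CPM (median 22.5) in SS libraries and rose by 0.52 ± 0.08 (adjusted p = 0.000337), with 10 of 14 SS libraries above every AA library. Edn3, an endothelin peptide, rose by 0.49 ± 0.10 (adjusted p = 0.0149). No gene was called among junction genes (0 of 15, median 0.024), vascular FOX and SOX factors (0 of 14, 0.071), angiogenesis genes (0 of 17, 0.046), pericyte and smooth muscle genes (0 of 16, 0.063) and nitric oxide genes (0 of 14, -0.078). Vegfa, the growth factor of vessels, was at 65.3 ± 18.8 CPM in AA and 88.9 ± 25.3 CPM in SS mice (0.44 ± 0.15, adjusted p = 0.455).

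Without the pair 26 further genes were called, 21 higher and 5 lower, and these were named after their values were seen. Eng, an endothelial co-receptor of TGF-beta, rose by 0.47 ± 0.08 (adjusted p = 0.00204) where the value with all libraries was 0.39 ± 0.09 (adjusted p = 0.0657). Edn1, endothelin 1, rose by 0.62 ± 0.13 (adjusted p = 0.0178). Apln, a peptide of capillary tip cells, rose by 0.43 ± 0.09 (adjusted p = 0.0221). Kcnj8 and Abcc9, which form a potassium channel of pericytes, rose by 0.48 ± 0.09 and 0.64 ± 0.15 (adjusted p = 0.00274 and 0.0434). Gbp4 and Gbp5, guanylate-binding proteins that interferon induces, rose by 0.82 ± 0.18 and 0.55 ± 0.11 (adjusted p = 0.0287 and 0.0125). Hcar1, the lactate receptor, fell, with a log2 fold change of -1.38 ± 0.28 (adjusted p = 0.0102).

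Apol11b, of the apolipoprotein L family, had the largest log2 fold change of the genes called. It ran from 0 to 2.42 CPM (median 0.127) in AA and from 0.211 to 18.6 CPM (median 5.44) in SS libraries, and 13 of 14 SS libraries lay above every AA library. The log2 fold change was 4.68 ± 0.54 (adjusted p = 1.89e-06), and 5.51 ± 0.40 without the pair. Of 13 family members 4 passed the filter on low counts, which keeps a gene that is high in 1 group. Of these 4, 1 was called, beside 0.203% of all genes tested. Apol8, named after its values were seen, was at 6.74 ± 0.872 CPM in AA and 6.01 ± 0.637 CPM in SS mice (-0.17 ± 0.07, adjusted p = 0.737).

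Among called genes in no list, Fmo2, a flavin monooxygenase, ran from 1.86 to 6.904 CPM (median 3.37) in AA and from 3.61 to 23.4 CPM (median 8.75) in SS libraries and rose by 1.67 ± 0.25 (adjusted p = 0.000114). The SS libraries spread widely for Fmo2, with 12.6 to 23.4 CPM in 9812, 5800, 9813, 9810, 5797 and 5801. It was at 10.4 CPM in 9890 and at 3.61 to 7.11 CPM in the other SS libraries, of which 9895 was the lowest. 8430408G22Rik, now named Depp1, ran from 0.7298 to 4.399 CPM (median 1.76) in AA and from 2.56 to 12.96 CPM (median 6.27) in SS libraries and rose by 1.83 ± 0.23 (adjusted p = 5.96e-06). Here the highest AA library was 5648, and 5853 held 2.76 CPM. Acer2, an alkaline ceramidase that releases sphingosine, ran from 7.93 to 26.6 CPM (median 13.2) in AA and from 16.7 to 42.6 CPM (median 29.03) in SS libraries. It rose by 1.20 ± 0.16 (2.297-fold, adjusted p = 1.32e-05), and without the pair every SS library lay above every AA library. Of its exonic bases 14.4% are covered on the other strand. The sphingolipid and ceramide list does not hold Acer2, and 0 of its 26 members were called (median -0.025).

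Smaller or less abundant differences made up the rest of the genes that rose. Ier3, an early response gene, ran from 3.35 to 8.08 CPM (median 3.94) in AA and from 4.06 to 8.58 CPM (median 7.13) in SS libraries and rose by 0.59 ± 0.12 (adjusted p = 0.0189). Of its exonic bases 34.8% are covered on the other strand. Tmem252 rose by 1.41 ± 0.21 (adjusted p = 9.28e-05) at no more than 3.58 CPM, with 46.5% of its exonic bases covered on the other strand. Bst1, an ADP-ribosyl cyclase of blood and stromal cells, rose by 1.97 ± 0.28 (adjusted p = 4.98e-05) and passed the filter on low counts in 19 of 32 fits that each left out 1 library. E2f2, a transcription factor of cell division, rose by 0.53 ± 0.10 (adjusted p = 0.00686). Pla1a, a phospholipase, rose by 0.60 ± 0.14 (adjusted p = 0.0447), a call that held in 12 of those fits (highest adjusted p = 0.110, without 5797). Ctse, Tmem252, Bst1, E2f2, Pla1a, Adgrl4, Edn3 and 8430408G22Rik were named after their values were seen.

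**Figure D3:**
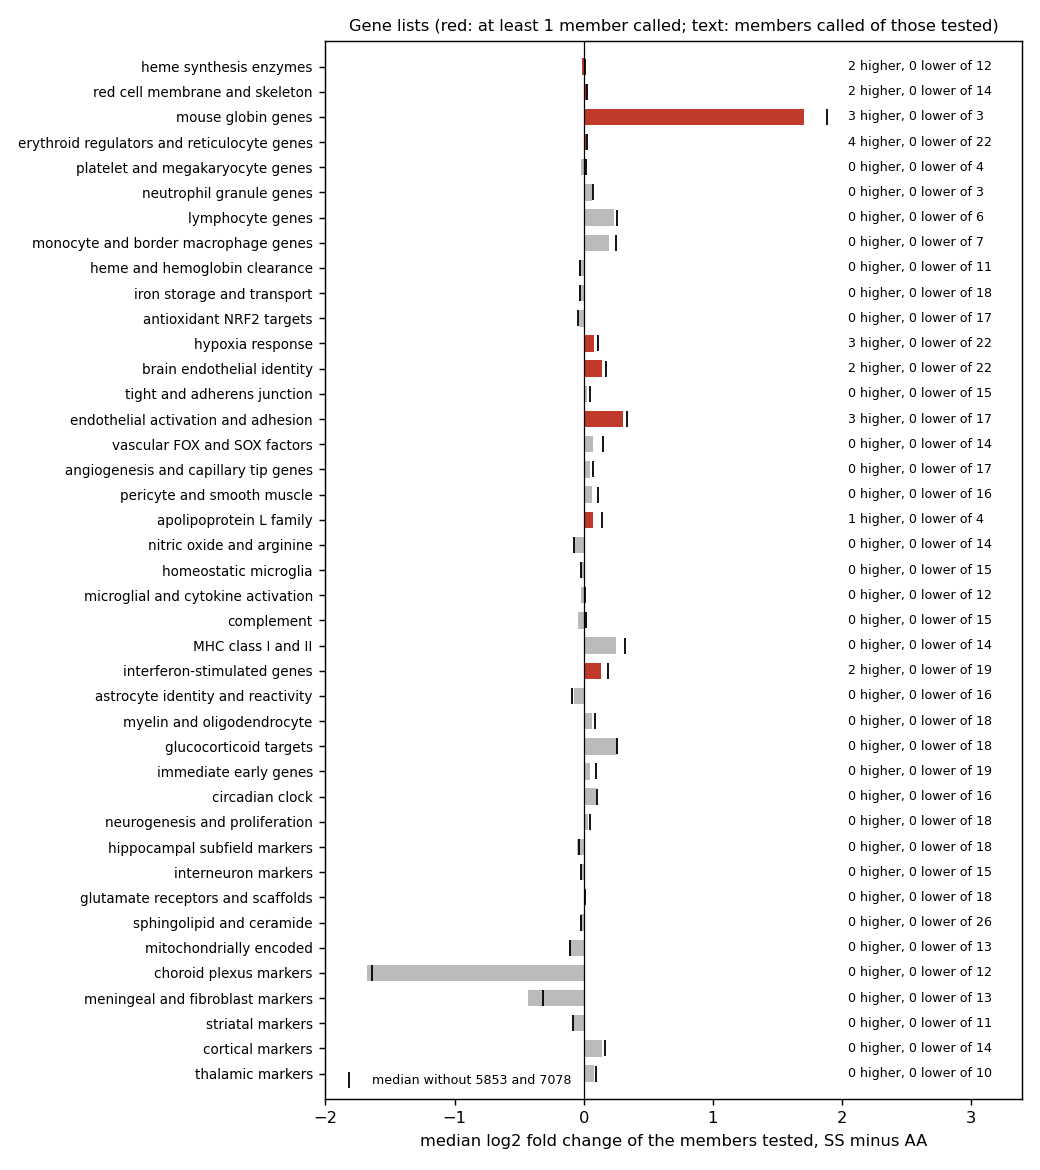
Median log2 fold change (SS minus AA) of the tested members of 41 gene lists, red where a member was called, with the median without 5853 and 7078 as a tick. Apart from mouse globins at 1.71 and choroid plexus markers at -1.68, the medians lie between -0.43 and 0.31. The globin median rests on 3 of 11 genes that passed the filter on low counts. That filter keeps a gene that is high in 1 group, so this median does not speak for the list.

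With all libraries the lists of microglia, complement, astrocytes, myelin and neurons held no called gene. Homeostatic microglia (0 of 15, median -0.021), complement (0 of 15, -0.043) and microglial and cytokine activation (0 of 12, -0.018) had medians near that of all genes. Csf1r, the receptor that microglia depend on, was at 108 ± 13.7 CPM in AA and 111 ± 20.6 CPM in SS mice, Cx3cr1, their fractalkine receptor, at 52.4 ± 5.73 and 53.6 ± 6.95 CPM, and C1qa, a complement subunit, at 39.9 ± 14.5 and 40.4 ± 15.7 CPM. Without the pair Gpnmb, a glycoprotein of activated microglia, fell, with a log2 fold change of -0.50 ± 0.11 (adjusted p = 0.0259). Of astrocyte genes 0 of 16 were called, and Gfap, the reactive filament, was at 431 ± 91.1 CPM in AA and 343 ± 92.5 CPM in SS mice (-0.33 ± 0.12, adjusted p = 0.567). Without the pair Osmr, the oncostatin M receptor, rose by 0.38 ± 0.08 (adjusted p = 0.0262). Myelin genes (0 of 18, median 0.063), subfield markers (0 of 18, -0.052), interneuron markers (0 of 15, -0.016), glutamate receptors (0 of 18, 0.0088) and neurogenesis genes (0 of 18, 0.033) did not pass either. Camk2a, the abundant kinase of excitatory synapses, was at 4798 ± 581 CPM in AA and 5070.1 ± 718 CPM in SS mice.

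Glucocorticoid targets had a median of 0.26 with 16 of 18 positive, and 0 of 18 were called. Sgk1, a kinase that the hormone induces, was at 87.8 ± 28.4 CPM in AA and 124 ± 52.4 CPM in SS mice (0.50 ± 0.17, adjusted p = 0.557). Immediate early genes (0 of 19, median 0.052) and clock genes (0 of 16, 0.10) did not pass. Genes of heme clearance (0 of 11, median -0.036), iron (0 of 18, -0.035), NRF2 targets (0 of 17, -0.039) and mitochondrially encoded genes (0 of 13, -0.12) were also without a call. Fth1, ferritin heavy chain, was at 1767 ± 610.3 CPM in AA and 1846 ± 549 CPM in SS mice, and Tfrc, the transferrin receptor, at 105 ± 13.1 and 122 ± 20.4 CPM (0.22 ± 0.07, adjusted p = 0.4897).

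Markers of neighbouring tissue were not called. The choroid plexus list had a median of -1.68 (0 of 12 called), the meningeal list -0.43 (0 of 13), the striatal list -0.09 (0 of 11), the cortical list 0.14 (0 of 14) and the thalamic list 0.08 (0 of 10). Ttr, the transthyretin of choroid plexus, ran from 3.28 to 9511 CPM (median 42.04) in AA and from 7.06 to 1998 CPM (median 15.8) in SS libraries, and the groups overlapped over most of that range.

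Of the 3 genes that fell, Tuba1c, an alpha-tubulin with close paralogs, ran from 0.831 to 61.5 CPM (median 7.45) in AA and from 0.709 to 6.63 CPM (median 1.11) in SS libraries. The AA mice were spread, with 10 of 18 above every SS library and the others among the SS libraries. The log2 fold change was -3.43 ± 0.65 (adjusted p = 0.00589). The AA libraries labelled 9876, 9853, 9851, 9852, 9878, 10633 and 10638 held 21.3 to 61.5 CPM of Tuba1c. Of the AA libraries with lower numbers 5898 held 28.4 CPM and the others 0.831 to 8.20 CPM. SS libraries numbered from 9810 to 9910 held 0.709 to 2.84 CPM. Whether the level in AA mice varies with these numbers was not tested. Gm9625, a predicted gene named after its values were seen, ran from 0.444 to 11.3 CPM (median 5.51) in AA and from 0.621 to 3.37 CPM (median 0.798) in SS libraries, with 11 of 18 AA libraries above every SS library (-2.23 ± 0.44, adjusted p = 0.007696). The cortex of the same mice was split likewise, where 7 AA mice exceeded every SS mouse for Tuba1c, all of them among the 10, and 10 did so for Gm9625, all among the 11. Tuba1c was also uneven in mice without RSD and minocycline, from 0.607 to 66.01 CPM in 11 AA mice and from 1.04 to 26.5 CPM in 7 SS mice. Mrgprf, an orphan receptor also named after its values were seen, ran from 0.112 to 1.38 CPM (median 0.739) in AA and from 0.0784 to 0.535 CPM (median 0.283) in SS libraries, with 12 of 18 AA libraries above every SS library in the hippocampus and 0 in the cortex. It fell, with a log2 fold change of -1.25 ± 0.27 (adjusted p = 0.0271), a call that held in 22 of 32 fits that each left out 1 library.

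**Figure D4:**
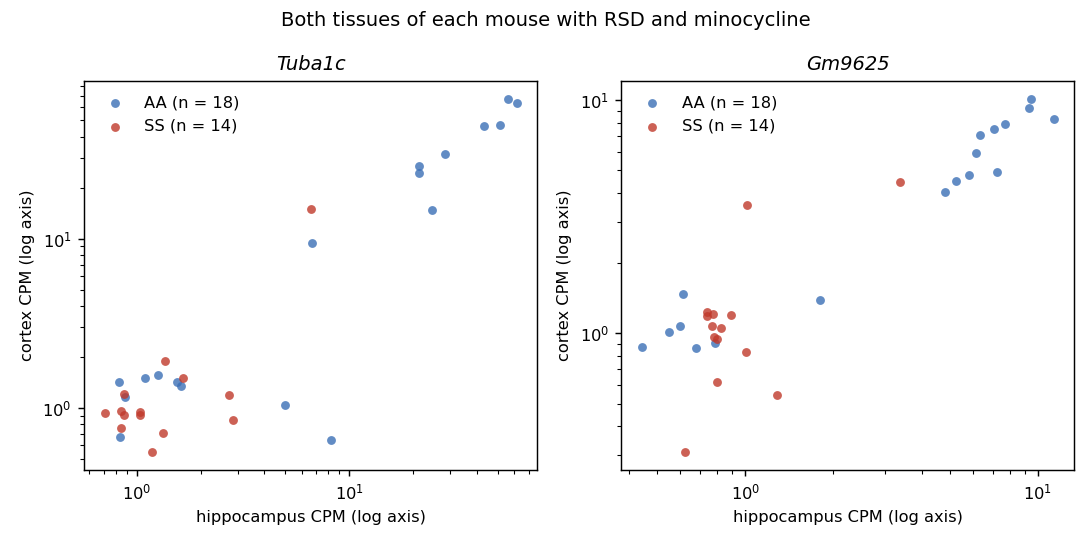
Level of Tuba1c and Gm9625 in the hippocampus and the cortex of each mouse, in CPM on log axes, by genotype. AA mice lie at both ends of the range, with 10 of 18 above every SS mouse in the hippocampus for Tuba1c and 11 of 18 for Gm9625.

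The title numbers of the mice form blocks of near numbers. Each set used here joins a lower and a higher block, and the labels name neither the blocks nor the sets as a batch. One set held 12 SS and 15 AA mice and another 2 SS and 3 AA mice, 7078 among them. Within the larger set 42 genes were called, 33 of the 36 among them. Within the smaller set 0 were called by edgeR, with 401 genes at an unadjusted p under 0.05. With the set as a term in the model of all 32 libraries 40 genes were called, 35 of the 36 among them. That term does not separate the lower from the higher block within a set.

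The genotypes were also compared in mice with neither RSD nor minocycline, 7 SS and 11 AA, to ask whether the difference depends on exposure. In a model of all hippocampus groups 37 of 23215 genes were called there (0.159%), with 20 of the 36 genes among them, and 34 of the 36 had the same sign. All untreated libraries stand under their labels in that model. The highest untreated AA library held 55.8 CPM of Alas2, beside a group median of 3.46 CPM, and untreated SS libraries began at 44.3 CPM. Whether that AA library was mislabelled was not tested. The test of the difference between both genotype differences called 0 of 23215 genes (0%) by edgeR, with 1000 at an unadjusted p under 0.05, and 0 by DESeq2, with 818. A further fit left out 5853, 7078 and 3 doubted libraries of other groups, all labelled AA and either untreated or given RSD alone. In that fit 50 genes were called in untreated mice, 24 of the 36 among them. The test of the difference again called 0 by edgeR, with 1005 at an unadjusted p under 0.05. With the doubted libraries kept under their labels, the log2 fold change for Rsad2 was 2.52 ± 0.24 with RSD and minocycline and 2.84 ± 0.31 in untreated mice. For Alas2 it was 3.21 ± 0.41 and 3.33 ± 0.55, and for Adm 1.44 ± 0.13 and 1.16 ± 0.22. Hba-a2 and Mrgprf were the pair of opposite sign. Hba-a2 had -0.38 ± 0.60 in untreated mice, where 1 AA library held 8.89 CPM beside a group median of 0.1804 CPM, and the difference of 2.09 ± 0.77 did not pass the adjusted test (unadjusted p = 0.00859 by edgeR). Hbb-bs, a mouse globin that the human genes replace, also reached 33.5 CPM in these untreated AA mice, beside a median of 0.032 CPM. Whether the same library held both, and why, was not tested. Mrgprf had 0.47 ± 0.37 there, and the difference of -1.72 ± 0.47 did not pass either (unadjusted p = 0.000466 by edgeR).

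In the cortex of the same 32 mice 82 of 17820 genes were called (0.46%), with 31 of the 36 genes among them. These are the same animals, so the tissues are not independent, and 5853 and 7078 stand under their labels in both. The genotype difference in the hippocampus minus that in the cortex, taken within each mouse and tested by limma, was called for 0 of 17270 genes (0%), with 1516 at an unadjusted p under 0.05. Without 5853 and 7078 the cortex had 97 genes called, 33 of the 36 among them, and the difference between tissues was called for 0 genes by limma, with 1373 at an unadjusted p under 0.05. The 5 genes not called in the cortex had log2 fold changes there of 0.78 ± 0.19 for Hbq1a (adjusted p = 0.0508), 0.45 ± 0.11 for Adgrl4 (0.0508), 0.52 ± 0.17 for Apold1 (0.3298), 0.26 ± 0.11 for Abcb1a (0.551) and 0.085 ± 0.27 for Mrgprf (0.968). Apol11b differed by 4.88 ± 0.53 in the cortex, Rsad2 by 2.62 ± 0.24 and Adm by 1.17 ± 0.12.

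**Figure D5:**
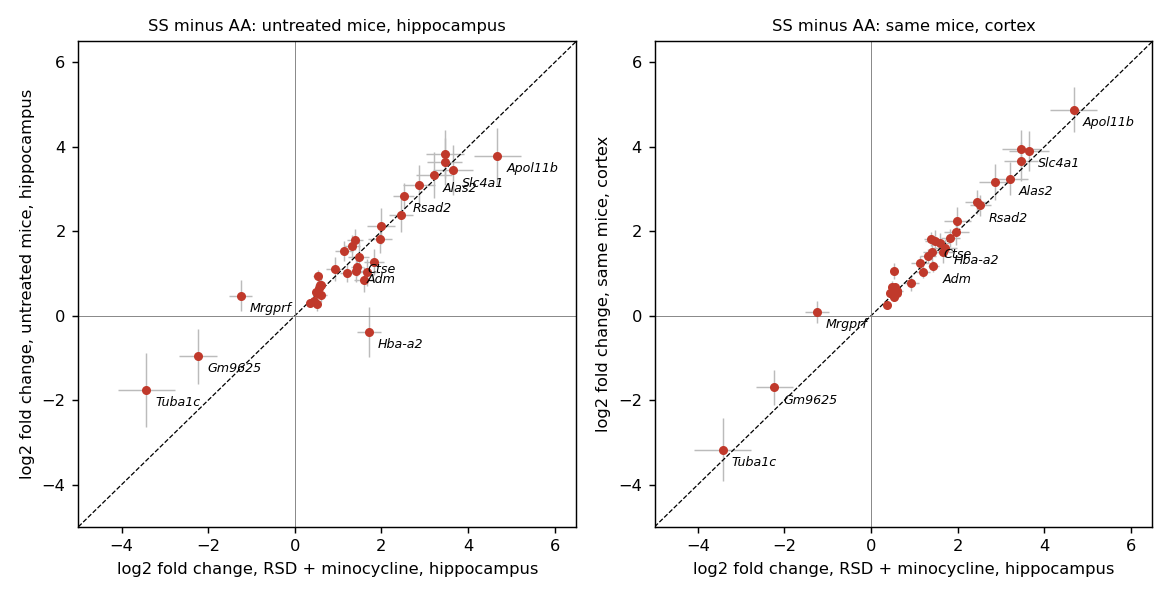
Log2 fold change of SS against AA for 35 of the 36 genes called with RSD and minocycline in the hippocampus (x axis) against that in untreated mice (left) and in the cortex of the same mice (right), with standard errors and a dashed line of equal values. The plotted genes have the same sign on both axes, except Hba-a2 and Mrgprf on the left and Mrgprf on the right.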

How the data were processed

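Polyadenylated RNA was sequenced by the authors from directional libraries as single reads and aligned to GRCm39 with STAR, and the deposited tables hold raw read counts for 55416 GENCODE genes. The strand setting and the annotation release are not given in the sources used here. Each file has 4 summary lines that name no gene, which were kept out of library sizes and tests, as were 3 columns that match no library used here. Tests on the counts used edgeR 4.0.16 under R 4.3.3 (TMM scaling, filterByExpr with a minimum count of 10 and a minimum total of 15, quasi-likelihood test, Benjamini-Hochberg adjusted p under 0.05). DESeq2 1.42.0 was an alternative, and limma 3.58.1 tested within-mouse differences of log2 CPM (prior count 2). Each mouse, identified by its title number, is 1 replicate. Scripts were tested on simulated data. Positions and overlaps were taken from GENCODE release M39. The members and gene lists were chosen with earlier results of these data known. Genes were named by rule as up to 15 per direction of largest fold whose mean log2 CPM reached 1, called list members and up to 4 members of largest mean CPM in each list without a call, and others are marked as named after their values were seen. Of the genes called, 1 is not reported here by name.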

Additional observations from a re-analysis of the deposited data

Results flagged for a closer look

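The levels of Alas2, Rsad2, Adm and Tuba1c in each of the SS groups outside the comparison, 12 sets of libraries in all, were checked with Dixon's ratio. Of these, 4 sets held a library far from the others. Chance gives about 1 in 20 for normally distributed values in independent sets. The sets share mice and Tuba1c is unevenly spread, so that rate need not hold here, and an excess was not tested. Rsad2 was at 5.22 CPM in 1 untreated SS mouse, beside a group median of 13.1 CPM. Adm was at 3.91 CPM in 1 mouse of the SS group with RSD and no minocycline, beside a median of 2.88 CPM. Tuba1c was at 33.6 CPM in that same mouse, beside a median of 6.25 CPM, and at 26.5 CPM in 1 untreated SS mouse, beside a median of 1.75 CPM.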

How the results depend on the processing

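The 36 genes kept their direction in all 531 values that 15 settings gave for them, and 41 of these missed the threshold, 31 of them within the smaller set of title numbers. Most settings refit all or most of the same libraries, and the main fit chose the genes. A shared direction was therefore largely given beforehand and is a description. Against 36 genes called, DESeq2 called 66, an unadjusted p under 0.05 gave 851, the fit with low-count genes kept called 88, the smaller set of title numbers 0, and the fit without 5853 and 7078 called 60. A model of all hippocampus groups called 635, and 599 of these were not among the 36. Of the 599, 508 were not tested in the model of the groups compared and 495 had their highest SS value in 9812. Without 9812, an alternative chosen after seeing the data, the model of all groups called 63. The cause of these differences was not tested. The other settings gave 35 to 54 genes, and leaving out 1 library at a time gave 31 to 50. The difference from untreated mice and that from the cortex called 0 genes in each alternative run. In all, 15 of the 36 called genes had a mean under 1 CPM in AA mice, so that few reads stand behind their levels. Reads of overlapping genes may be shared, since the strand setting is not known. No paired analysis was possible because the mice of both genotypes are separate animals whose numbers do not pair them.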
